A study of Homo sapiens with 10 samples.

Results

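The genes described here are 10 members of the tumour necrosis factor (TNF) receptor superfamily, among them the secreted decoy receptor osteoprotegerin (TNFRSF11B). They were chosen by symbol from the 58735 lines of the deposited count table, with earlier results of the comparison below already known. Their fold changes and adjusted p-values in that comparison are therefore a description of these libraries and no independent test. The libraries came from human cells with the label HCMECs, entered as endothelial cells of the brain and as a cell line, which were transfected for 48 h with a control small interfering RNA (siCtrl, 5 libraries) or with an siRNA against the deubiquitinase gene USP9X (siUSP9X, 5 libraries). All 10 libraries came from cells that were then given Wnt3a, a secreted Wnt ligand, for 12 h, so no group shows the cells without Wnt3a. The labels give no siRNA sequence and do not say whether the replicates were separate cultures, so a p-value here speaks of the spread between libraries alone, and that spread may be technical.

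TNF receptors are membrane proteins with cysteine-rich extracellular repeats that bind trimeric ligands of the TNF superfamily. Death receptors, among them FAS, TNFRSF1A, TNFRSF10A, TNFRSF10B and TNFRSF21, carry an intracellular death domain that can recruit adaptor proteins, and through them caspase-8 or the kinases that activate NF-kB. Receptors without a death domain, such as TNFRSF1B, TNFRSF9 and TNFRSF12A, bind TRAF adaptors, while decoy receptors bind ligand without a working death domain: TNFRSF10D stays in the membrane, and osteoprotegerin is secreted and captures RANKL and TRAIL. Endothelial cells are known to secrete osteoprotegerin and to respond to TNF through TNFRSF1A.

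Library totals ran from 15958362 to 26467787 counts. USP9X itself had a mean of 341 CPM (counts per 1e+06 counts, with library totals scaled by TMM factors) ± 48.6 (SD, n = 5) in siCtrl and 35.2 ± 19.8 (n = 5) in siUSP9X libraries, 9.69-fold lower (log2 fold change -3.28 ± 0.32, SE; adjusted p = 0.000403 by edgeR). Among the siUSP9X libraries, replicate 2 kept the most USP9X (68.8 CPM against 20.7 to 36.5) and stood apart in its share of ribosomal protein gene counts, 2.15% against 4.48% to 5.19% in the other 4 and 4.85% to 6.45% in siCtrl. Of 15 endothelial markers, 11 averaged under 1 CPM, with PECAM1 at 8 counts in each group, KDR at 4 and 2, and ERG, FLT1 and EMCN at 0 in all 10 libraries. The other 4, as siCtrl and siUSP9X means in CPM, were ESAM at 161 ± 15.8 and 143 ± 43.4, PROCR at 90.3 and 92.5, ENG at 84.1 and 59.1, and EGFL7 at 27.5 and 14.8. Also among the 11 under 1 CPM were CDH5, VWF, TEK, TIE1, CLDN5 and ROBO4. So most markers listed for the labelled cell type, 11 of 15, were near 0, and 4 were well detected. Summed endothelial markers spanned 319 to 392 CPM in siCtrl and 158 to 364 CPM in siUSP9X. Summed epithelial markers spanned 3323 to 4184 and 2037 to 2761 CPM, led by the keratins KRT8 and KRT18 (siCtrl means 2156 and 1580 CPM). Of these 9 markers, 6 averaged under 1 CPM: EPCAM, CDH1, KRT19 and, at 0, KRT5, KRT14 and GRHL2. The remaining marker, ESRP1, was detected at a low level, with a control mean of 5.78 ± 0.499 CPM (SD). Its mean after USP9X siRNA was 3.31 ± 1.51 CPM, with overlapping groups (edgeR adjusted p = 0.0837). Both keratins fell (adjusted p = 0.0400 and 0.00216, edgeR). With a library left out, the KRT18 call held in 10 of 10 fits and the KRT8 call in 3, at an adjusted p of up to 0.111. Summed mural, fibroblast, leukocyte, neural and osteoblast markers reached at most 10.4 CPM in any library. The mural marker RGS5 had several lines in the table and was left out of these sums. The part of these differences in the receptor results was not tested, and in bulk RNA fewer cells of a type and less RNA per cell cannot be told apart.

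Of the 10 receptors, 8 had enough counts to be tested and 3 of those passed the threshold of an adjusted p under 0.05. TNFRSF11B rose 2.22-fold, FAS fell 1.78-fold and TNFRSF10A fell 1.57-fold in the siUSP9X libraries. TNFRSF10B, TNFRSF10D, TNFRSF1A, TNFRSF12A and TNFRSF21 did not pass, and TNFRSF1B and TNFRSF9 lay near 0 in both groups. Across all 13934 genes tested, 7.31% were called, 4.09% as higher and 3.22% as lower in siUSP9X, and because the members were chosen with this comparison known, nothing is read from their count against these shares. The same 3 receptors were those whose 5 siUSP9X values did not overlap the 5 siCtrl values, a separation found in 14.6% of all genes tested. The median log2 fold change of the 8 tested receptors was -0.14, beside 0.03 over all tested genes, and the median absolute value was 0.38 beside 0.27.

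**Figure D1:**
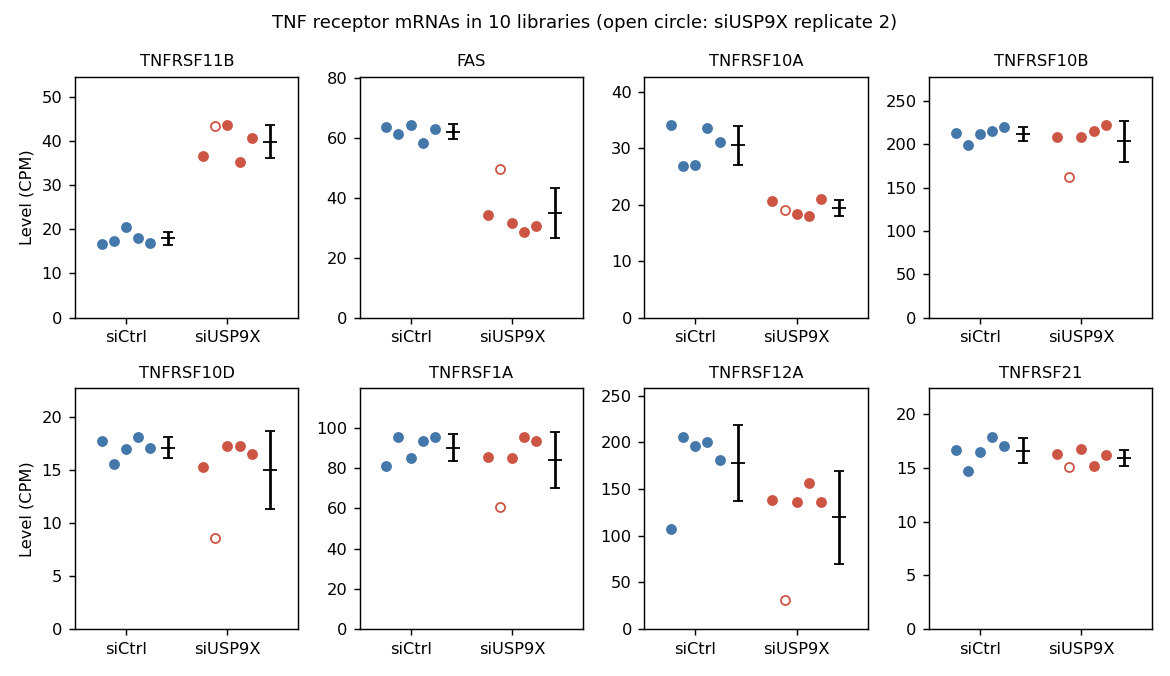
CPM of the 8 tested receptors in each library, replicates 1 to 5 from left to right in each group, with the mean and SD beside them and an axis of its own from 0 for each gene; the open circle is siUSP9X replicate 2. TNFRSF11B values are 16.7 to 20.6 in siCtrl and 35.4 to 43.6 in siUSP9X, while FAS and TNFRSF10A lie lower in every siUSP9X library than in any siCtrl library, and siUSP9X replicate 2 is the lowest library for TNFRSF10B, TNFRSF10D, TNFRSF1A and TNFRSF12A.

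The decoy receptor TNFRSF11B (ENSG00000164761.8) lies on chromosome 8 at 118923557 to 118952200 on the minus strand (GRCh38, GENCODE release 29), and as osteoprotegerin it blocks RANKL from reaching its receptor RANK. Its levels in siCtrl replicates 1 to 5 were 16.73, 17.45, 20.6, 18.10 and 16.97 CPM. In siUSP9X replicates 1 to 5 they were 36.6, 43.4, 43.6, 35.4 and 40.6 CPM. Every siUSP9X library was above every siCtrl library, and the lowest of them was well clear of the highest control. The means were 18.0 ± 1.54 and 39.9 ± 3.79 CPM (SD, n = 5 each), from 1806 and 3423 pooled counts. The edgeR log2 fold change was 1.15 ± 0.11 (SE; adjusted p = 0.000313), which placed TNFRSF11B 9th by p among all tested genes and 3rd among those that were higher. With each library left out in turn the call held in 10 of 10 fits, at 1.12 to 1.20. Library siUSP9X replicate 2 lay inside the range of the other siUSP9X libraries here, and its removal gave a log2 fold change of 1.12.

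The genes whose levels followed TNFRSF11B most closely over the 10 libraries were found by the mean absolute difference of log2 CPM, each gene centred on its own mean. Among 10560 genes of at least 5 CPM the median difference was 0.580. NIPAL4, a magnesium transporter family gene, came first with 0.0931 and went from 3.58 ± 0.316 to 7.74 ± 0.822 CPM. SGK1, a serum- and glucocorticoid-induced kinase, followed with 0.121 and went from 79.3 ± 7.04 to 153 ± 16.8 CPM. CD163L1, a scavenger receptor, was at 0.122 (12.6 ± 0.715 to 24.5 ± 2.88 CPM), SCML2, a Polycomb-related protein, at 0.141 (9.56 ± 0.875 to 18.6 ± 3.54 CPM), and ARID3A, a DNA-binding protein, at 0.142 (31.0 ± 2.24 to 63.0 ± 2.82 CPM). All 5 had their higher mean in siUSP9X, as a gene matched to TNFRSF11B on these libraries must, and likeness was measured on the same values that chose TNFRSF11B.

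FAS (ENSG00000026103.21; 10:88990582-89015785, plus strand) encodes the receptor for FAS ligand. Its levels in siCtrl replicates 1 to 5 were 63.6, 61.3, 64.2, 58.2 and 63.0 CPM, and in siUSP9X replicates 1 to 5 34.2, 49.6, 31.5, 28.7 and 30.5 CPM. The siCtrl libraries were nearly level, and all siUSP9X libraries lay below them, with replicate 2 the highest of the 5. The means were 62.1 ± 2.40 and 34.9 ± 8.44 CPM (SD, n = 5 each), and edgeR gave a log2 fold change of -0.83 ± 0.15 (SE; adjusted p = 0.00827). The call held in 10 of 10 fits with a library left out, from -0.99 without siUSP9X replicate 2 to -0.77. The spread within siUSP9X, 24.2% of the mean, was 7.38% without that replicate. FAS shares 380 exon bases with ACTA2 on the opposite strand, which had 207 counts in all 10 libraries against 9223 for FAS.

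To show the DNA in front of receptors that fell and did not, start-site windows were taken from RefSeq (GRCh38.p14), which held 7 windows of 250 bases upstream for 5 of the members: 3 for FAS, which has several start sites, and 1 each for TNFRSF1A, TNFRSF1B, TNFRSF21 and TNFRSF9. Printed are the stretches of 3 windows, for FAS the most upstream, that lie upstream of every annotated exon, 5′ to 3′ on the gene's strand, with matches to the motifs searched in capitals. FAS fell, while TNFRSF1A and TNFRSF21 did not pass the test.
FAS, chr10:88990548-88990581, plus strand: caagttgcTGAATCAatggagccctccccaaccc
TNFRSF1A, chr12:6342115-6342326, minus strand: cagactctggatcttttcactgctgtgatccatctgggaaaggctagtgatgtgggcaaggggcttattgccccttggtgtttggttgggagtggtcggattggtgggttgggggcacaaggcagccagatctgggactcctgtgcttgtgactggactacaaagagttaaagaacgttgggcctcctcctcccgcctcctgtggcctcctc
TNFRSF21, chr6:47309906-47310155, minus strand: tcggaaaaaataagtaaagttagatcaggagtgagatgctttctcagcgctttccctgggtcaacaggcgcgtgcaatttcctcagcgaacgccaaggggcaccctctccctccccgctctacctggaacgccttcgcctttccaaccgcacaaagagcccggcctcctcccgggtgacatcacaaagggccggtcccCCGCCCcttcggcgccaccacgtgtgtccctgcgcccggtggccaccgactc
The capitals mark an AP-1 match (TGANTCA) for FAS and a GC box, the letters GGGCGG bound by Sp1, read on the other strand for TNFRSF21, while TNFRSF1A held no match. The motifs were searched on both strands and also included the TATA box TATAAA, the TCF/LEF core CTTTGA, which Wnt signalling uses, and the NF-kB core GGANNTTCC. Over 35116 windows of the same length, 42.64% held the GC box, 10.72% the TATA box, 6.573% the AP-1 letters, 11.21% the TCF/LEF core and 3.844% the NF-kB core. The most upstream FAS window also held 1 TCF/LEF core and 1 GC box, in bases that annotated exons of any gene, on either strand, cover. The second FAS window overlaps it and held 1 TCF/LEF core and 1 GC box, the last held 2 GC boxes, and neither held an AP-1 match. The TNFRSF9 window held 1 NF-kB core, 1 AP-1 match and 1 GC box, and the TNFRSF1B window held 2 overlapping GC boxes. The GC content of the whole windows was 62.8%, 62.0% and 65.2% for FAS, 56.8% for TNFRSF1A and 62.0% for TNFRSF21, beside a median of 58.0% over all windows. A match describes letters and is no evidence of binding, and a window without a match says only that those letters are not in it.

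TNFRSF1A (ENSG00000067182.7; 12:6328757-6342114, minus strand), the main receptor for soluble TNF, did not pass the test. Its siCtrl replicates 1 to 5 were at 81.0, 95.7, 84.8, 93.6 and 95.3 CPM and its siUSP9X replicates at 85.4, 60.8, 85.2, 95.3 and 93.6 CPM. The groups overlapped, and siUSP9X replicate 2 was the only library of that group below the lowest control. The means were 90.1 ± 6.73 and 84.1 ± 13.8 CPM (SD, n = 5 each), and edgeR gave a log2 fold change of -0.10 ± 0.13 (SE; adjusted p = 0.616), and without that replicate the change was -0.0022.

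TNFRSF21 (ENSG00000146072.6; 6:47231532-47309905, minus strand) is a death receptor known from neurons and T cells. It had 16.63, 14.75, 16.50, 17.91 and 17.07 CPM in siCtrl replicates 1 to 5 and 16.28, 15.12, 16.77, 15.16 and 16.16 CPM in siUSP9X replicates 1 to 5. Values of the 2 groups ran through the same range, with the lowest library and the highest library both in siCtrl. The means were 16.6 ± 1.16 and 15.9 ± 0.729 CPM (SD, n = 5 each), and the edgeR log2 fold change was -0.06 ± 0.10 (SE; adjusted p = 0.693).

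TNFRSF10A (ENSG00000104689.9) and TNFRSF10B (ENSG00000120889.12) are the death receptors for TRAIL and lie near each other on chromosome 8, minus strand, at 23190452 to 23225126 and 23020133 to 23069179. TNFRSF10A was at 34.1, 26.8, 27.0, 33.6 and 31.2 CPM in siCtrl replicates 1 to 5 and at 20.6, 19.05, 18.41, 17.99 and 21.0 CPM in siUSP9X replicates 1 to 5. All siUSP9X values lay below all siCtrl values, and replicate 2 was inside the siUSP9X range. The means were 30.6 ± 3.48 and 19.4 ± 1.34 CPM (SD, n = 5 each), and edgeR gave a log2 fold change of -0.65 ± 0.11 (SE; adjusted p = 0.00604). The call held in 10 of 10 fits with a library left out, at -0.70 to -0.61. TNFRSF10A shares 224 exon bases with the antisense gene TNFRSF10A-AS1 (464 counts in all 10 libraries) and 266 with AC100861.1 (796 counts), against 4767 counts of its own. The library kit keeps strand, but the sources used here do not say whether the counting used it, so part of the TNFRSF10A counts may belong to these partners.

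TNFRSF10B, the other TRAIL death receptor, was at 213, 199, 212, 215 and 220.0 CPM in siCtrl replicates 1 to 5. In siUSP9X replicates 1 to 5 it was at 209, 162, 209, 215 and 222 CPM. Apart from replicate 2, the siUSP9X libraries lay within the siCtrl range or just above it. The means were 212 ± 7.91 and 203 ± 23.7 CPM (SD, n = 5 each), and edgeR gave a log2 fold change of -0.06 ± 0.10 (SE; adjusted p = 0.706), and the change was 0.012 without siUSP9X replicate 2. Whether TNFRSF10A and TNFRSF10B responded differently was not tested.

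TNFRSF10D (ENSG00000173530.5), the membrane decoy receptor for TRAIL, lies between those genes at 23135588 to 23164030. It was at 17.78, 15.56, 17.01, 18.18 and 17.07 CPM in siCtrl replicates 1 to 5 and at 15.34, 8.64, 17.29, 17.25 and 16.56 CPM in siUSP9X replicates 1 to 5. The groups overlapped, with siUSP9X replicate 2 far below the other 9 libraries. The means were 17.12 ± 1.001 and 15.0 ± 3.65 CPM (SD, n = 5 each), and the edgeR log2 fold change of -0.19 ± 0.17 (SE; adjusted p = 0.474) became -0.04 without that library. TRAIL itself (TNFSF10) had 29 pooled counts in siCtrl and 16 in siUSP9X, and the other decoy TNFRSF10C had 8 and 2. Of the 50-base stretches in the transcripts of the 10 receptors, at most 1.001% (TNFRSF10B) occurred in any other gene. For TNFRSF10D the 0.831% shared were with AC107959.2, an antisense gene that overlaps TNFRSF10B on the opposite strand and does not overlap TNFRSF10D.

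TNFRSF12A (ENSG00000006327.13; 16:3018445-3022383, plus strand) is the receptor for TWEAK, known to be induced by growth factors and injury. Its siCtrl replicates 1 to 5 were at 107, 206, 196, 200.1 and 181 CPM and its siUSP9X replicates at 139, 31.5, 136, 157 and 136 CPM. In both groups 1 library lay far below the rest, replicate 1 in siCtrl and replicate 2 in siUSP9X, and the groups overlapped through siCtrl replicate 1. The means were 178 ± 40.8 and 120 ± 50.1 CPM (SD, n = 5 each), and edgeR gave a log2 fold change of -0.57 ± 0.35 (SE; adjusted p = 0.290). Without siUSP9X replicate 2 the change was -0.33 (adjusted p = 0.104), and without siCtrl replicate 1 it was -0.71 (adjusted p = 0.213). Its ligand TWEAK (TNFSF12) had 16.9 ± 4.69 CPM in siCtrl and 10.2 ± 4.04 CPM in siUSP9X, at an edgeR adjusted p of 0.176.

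TNFRSF1B (ENSG00000028137.18; 1:12167003-12209228, plus strand), the second TNF receptor, and TNFRSF9 (ENSG00000049249.8; 1:7915894-7943165, minus strand), a costimulatory receptor of T cells, were under the filter on low counts. For TNFRSF1B, siCtrl replicate 3 held 2 counts and the other 9 libraries 0. Pooled, that is 0.0199 CPM (95% exact Poisson interval 0.0024 to 0.0718) in siCtrl, and a count of 0 in siUSP9X allows up to 0.0351 CPM, the level of 3 counts. For TNFRSF9 the counts were 1, 4, 2, 5 and 4 over siCtrl replicates 1 to 5, and 2, 11, 8, 3 and 4 over siUSP9X replicates 1 to 5. The groups overlapped, and the pooled levels were 0.159 CPM (0.0909 to 0.258) and 0.327 CPM (0.217 to 0.473). Fitted without that filter, TNFRSF1B had an edgeR adjusted p of 0.402 and TNFRSF9 one of 0.410. These intervals and limits cover counting error only.

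**Figure D2:**
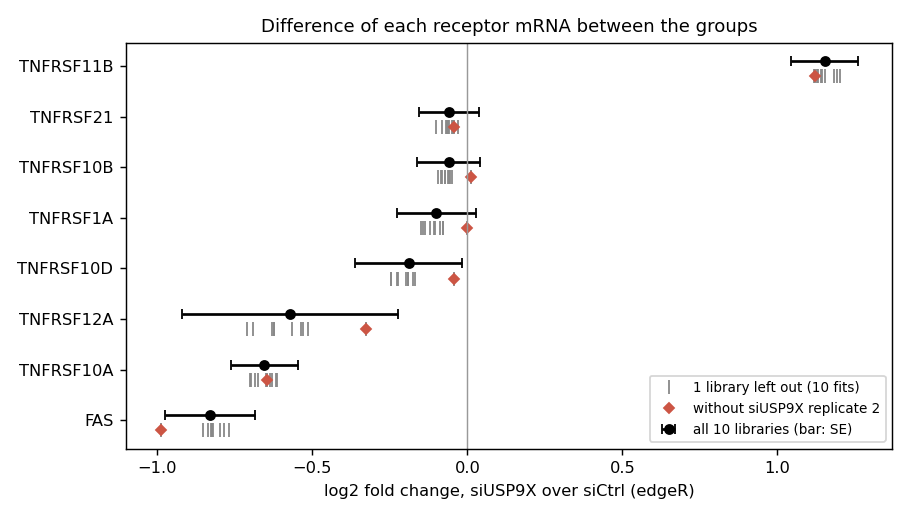
Log2 fold change of siUSP9X over siCtrl for the 8 tested receptors, from edgeR, as black points with bars of 1 SE; ticks under each are the fits with 1 library left out, and the red diamond is the fit without siUSP9X replicate 2. TNFRSF11B lies at 1.15, FAS at -0.83 and TNFRSF10A at -0.65, and without that library TNFRSF10B, TNFRSF10D and TNFRSF1A lie within 0.05 of 0.

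Library siUSP9X replicate 2 was the lowest of its group for 5 of the 8 tested receptors (TNFRSF10B, TNFRSF10D, TNFRSF1A, TNFRSF12A and TNFRSF21), the highest for FAS, and inside the range for TNFRSF11B and TNFRSF10A. Without it, the same 3 receptors were called among 23.4% of all genes tested in that fit. DESeq2 and limma-voom called these 3 as well, among 17.1% and 7.44% of all genes tested.

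Levels can be set beside each other between genes only per length, here as CPM per kilobase of annotated exon. In siCtrl TNFRSF12A was highest at 96.4 ± 22.1 (SD, n = 5), followed by TNFRSF10B at 41.1 ± 1.53 and TNFRSF1A at 22.5 ± 1.68. FAS came next at 14.6 ± 0.564, then TNFRSF10A at 10.4 ± 1.18 and, in place 6, TNFRSF11B at 6.35 ± 0.546. TNFRSF10D (4.84 ± 0.283) and TNFRSF21 (4.61 ± 0.323) overlapped, while TNFRSF9 (0.0247) and TNFRSF1B (0.00598) were close to 0. Apart from those overlapping pairs, TNFRSF10D with TNFRSF21 and TNFRSF9 with TNFRSF1B, neighbours in this order did not share values in siCtrl.

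In siUSP9X the order of the same per-length levels changed in the middle. TNFRSF12A (64.8 ± 27.1), TNFRSF10B (39.4 ± 4.59) and TNFRSF1A (21.0 ± 3.44) stayed on top. The first 2 now overlapped, through siUSP9X replicate 2 alone, where TNFRSF12A was at 17.1. TNFRSF11B moved to place 4 at 14.1 ± 1.34, above FAS at 8.21 ± 1.98 and TNFRSF10A at 6.58 ± 0.453. Per kilobase of exon, osteoprotegerin mRNA was below both FAS and TNFRSF10A in every siCtrl library and above both in every siUSP9X library. Per kilobase of the longest transcript this held except in siUSP9X replicate 2, where TNFRSF11B was at 18.1 and FAS at 19.3. The share of TNFRSF11B in the summed level per kilobase of exon of the 10 receptors was 3.17% in siCtrl and 8.68% in siUSP9X. These are shares of group means, and they also depend on TNFRSF12A, which made up 48.01% and 39.79%. TNFRSF12A was not called and lay far below the rest of its group in siUSP9X replicate 2. TNFRSF11B and TNFRSF1A, and FAS and TNFRSF10A, overlapped in siUSP9X, as did TNFRSF21 (4.42 ± 0.203) with TNFRSF10D (4.25 ± 1.03). The overlap of TNFRSF11B with TNFRSF1A came from siUSP9X replicate 2 alone, where TNFRSF1A was at 15.2. TNFRSF9 was at 0.0510 and TNFRSF1B at 0.

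**Figure D3:**
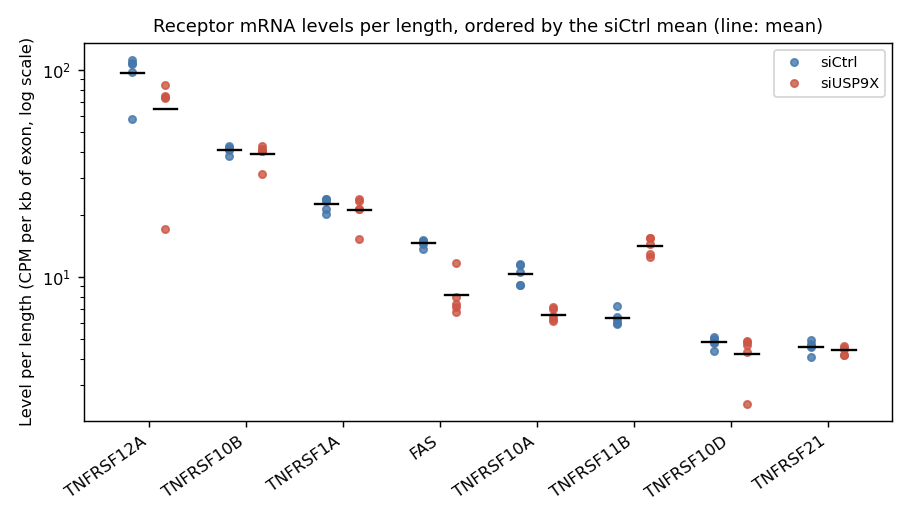
Level (CPM per kilobase of exon, log axis) of the 8 tested receptors, 1 point per siCtrl or siUSP9X library, with lines at the group means and genes ordered by the siCtrl mean. TNFRSF11B is in place 6 in siCtrl (mean 6.35) and in place 4 in siUSP9X (14.1), above FAS (8.21) and TNFRSF10A (6.58).

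The surrounding pathway was described by 143 further genes in 10 lists, of which 118 were tested, 23 were too low and 2 had several lines in the table and were left out. By edgeR, 4 rose (CASP8, BIRC2, SESN1 and TGFB2), 5 fell (TNFRSF11A, CSF2, DDB2, FDXR and TCF7L2) and 41 had an unadjusted p under 0.05. That is 7.63% called and 34.7% at an unadjusted p under 0.05, beside 7.31% and 27.8% of all tested genes. Their median log2 fold change was -0.17, beside 0.03 over all genes tested. DESeq2 called 11 higher and 16 lower (22.9%, beside 17.1% of all genes), and without siUSP9X replicate 2 edgeR called 15 and 22 (31.4%, beside 23.4%). Without siCtrl replicates 1 to 5 in turn it called 3, 1, 1, 1 and 2 higher and 4, 3, 2, 2 and 2 lower. Without siUSP9X replicates 1, 3, 4 and 5 in turn it called 2, 2, 5 and 1 higher and 4, 2, 3 and 2 lower. The shares of all genes called in these fits are not given here, so nothing is read from these counts. These lists were chosen with earlier results known. The counts of single lists below stand beside the same shares of all tested genes. Those called were 7.31% by edgeR, 17.1% by DESeq2, 7.44% by limma-voom and 23.4% by edgeR without siUSP9X replicate 2. An unadjusted p under 0.05 by edgeR was found in 27.8%.

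**Figure D4:**
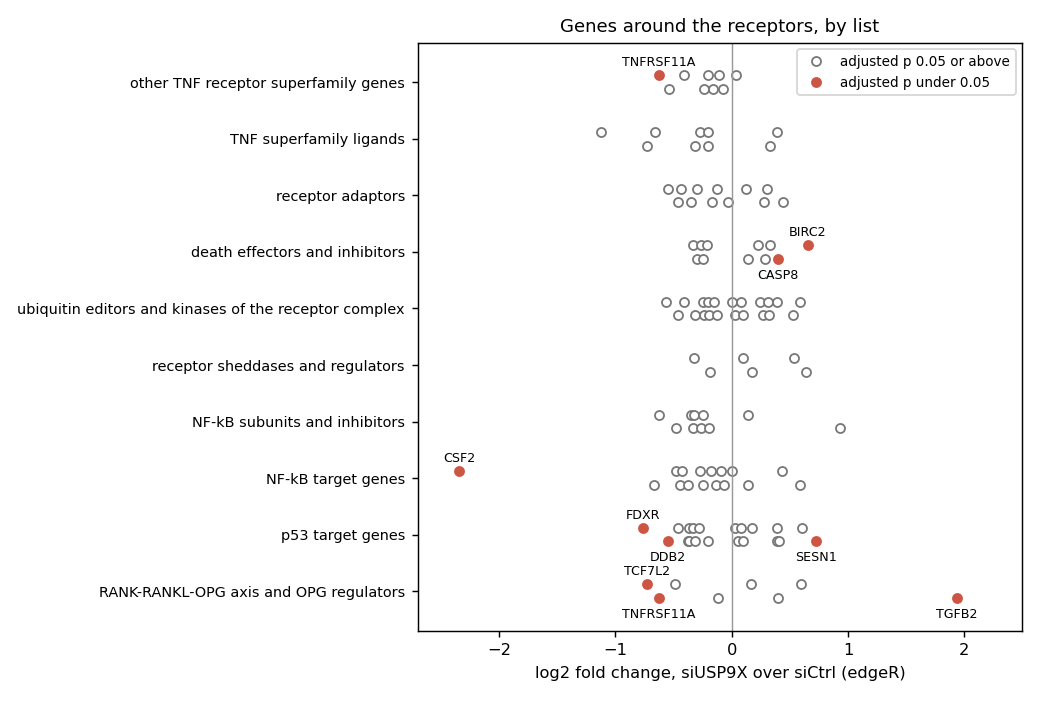
Log2 fold change of siUSP9X over siCtrl (edgeR) for the tested genes of the 10 pathway lists, 1 point per gene, filled where the adjusted p is under 0.05; TNFRSF11A, BIRC3, TNFAIP3 and NFKBIA each stand in 2 lists. TGFB2 lies farthest to the right at 1.94 and CSF2 farthest to the left at -2.34.

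Around osteoprotegerin, the list of the RANK, RANKL and osteoprotegerin axis with its regulators had 8 of 11 genes tested, 1 higher and 2 lower. In it 4 had an unadjusted p under 0.05 by edgeR. Over all tested genes 7.31% were called and 27.8% had such a p. RANKL (TNFSF11), the ligand that osteoprotegerin captures, had 0 counts in all 10 libraries, which allows up to 0.0298 CPM in siCtrl and 0.0351 CPM in siUSP9X. RANK (TNFRSF11A), the receptor of RANKL, fell from 4.40 ± 0.727 to 2.86 ± 0.259 CPM (SD, n = 5 each; log2 fold change -0.62 ± 0.16, SE; edgeR adjusted p = 0.0379), with overlapping groups. Its call held in 2 of 10 fits, those without siCtrl replicate 2 (adjusted p = 0.0264) or siUSP9X replicate 2 (0.0197), and reached 0.0975 in the others. TGFB2, a transforming growth factor, rose 3.82-fold from 14.8 ± 3.40 to 56.7 ± 20.2 CPM (log2 fold change 1.94 ± 0.24, adjusted p = 0.00110), and TCF7L2, a transcription factor of Wnt signalling, fell from 13.7 ± 1.41 to 8.26 ± 0.643 CPM (-0.73 ± 0.11, adjusted p = 0.00443). Both calls held in 10 of 10 fits with a library left out. Of the 2 genes with the highest levels in the list, CTNNB1, the beta-catenin gene, had 399 ± 9.98 and 447 ± 201 CPM (adjusted p = 0.635) and TGFB1 173 ± 10.8 and 159 ± 36.5 CPM (0.634). Without siUSP9X replicate 2 both changed sign, CTNNB1 from a log2 fold change of 0.17 to -0.16 and TGFB1 from -0.12 to 0.02.

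Among 19 other receptors of the superfamily, 9 were tested and TNFRSF11A was the only call by edgeR, while DESeq2 called 2, as did edgeR without siUSP9X replicate 2. CD40, a receptor that activates NF-kB, averaged 199 ± 22.2 CPM over the siCtrl libraries and 137 ± 27.1 CPM over the siUSP9X libraries, without overlap (log2 fold change -0.54 ± 0.15, SE; edgeR adjusted p = 0.0546). It passed the threshold without siUSP9X replicate 2 (adjusted p = 0.00173) and by DESeq2 (0.00894). LTBR, the lymphotoxin beta receptor, had 29.7 ± 3.26 and 26.7 ± 8.49 CPM (edgeR adjusted p = 0.662), with a log2 fold change of -0.16 that became 0.03 without that library.

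Of 18 TNF superfamily ligands, 9 were tested and edgeR called 0, with 3 at an unadjusted p under 0.05, while DESeq2 called 1 and limma-voom 0. Without siUSP9X replicate 2 edgeR called 2 higher and 3 lower. Of all tested genes, DESeq2 called 17.1%, limma-voom 7.44% and edgeR without that library 23.4%. TNFSF18, the ligand of GITR, had 83.4 ± 1.67 CPM in siCtrl and 105 ± 20.9 CPM in siUSP9X (edgeR adjusted p = 0.120, or 0.0481 without that library). TNF, the ligand of TNFRSF1A, had 68.6 ± 7.004 and 59.6 ± 4.07 CPM (adjusted p = 0.214). FAS ligand (FASLG), CD40LG and TNFSF8 had 0 counts in all 10 libraries. Transcripts of the ligands for FAS and RANK were thus not detectable at this depth, with the same limits as for RANKL.

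Inside the cell, edgeR called 0 of 12 receptor adaptors, with 5 at an unadjusted p under 0.05, 1 higher and 1 lower by DESeq2, 0 by limma-voom and 2 higher without siUSP9X replicate 2. TRAF3, an adaptor that restrains noncanonical NF-kB signalling, had 90.9 ± 1.65 and 110.3 ± 13.8 CPM (edgeR adjusted p = 0.106, or 0.0423 without that library), and DAXX, first described as a FAS-binding protein, 96.7 ± 9.61 and 78.8 ± 10.5 CPM (0.140). Of 21 ubiquitin editors and kinases of the receptor complex edgeR called 0, with 6 at an unadjusted p under 0.05, 1 higher and 2 lower by DESeq2, 0 by limma-voom and 2 higher and 2 lower without that library. TNIP1, a ubiquitin-binding partner of A20, had 499 ± 44.0 and 501 ± 69.6 CPM (0.975), and TAB2, a subunit of the TAK1 kinase complex, 77.0 ± 7.18 and 111 ± 34.3 CPM (0.0876, or 0.00986 without it).

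Of 13 death effectors and inhibitors, 11 were tested and 2 rose, with 4 at an unadjusted p under 0.05 by edgeR. Over all tested genes 7.31% were called and 27.8% had such a p. EdgeR called 2 higher and 3 lower without siUSP9X replicate 2, in a fit that called 23.4% of all genes. CASP8, the caspase that death receptors activate, rose from 50.1 ± 2.54 to 65.9 ± 4.88 CPM (SD, n = 5 each; log2 fold change 0.39 ± 0.09, SE; edgeR adjusted p = 0.0276), with every siUSP9X library above every control. That call held in 3 of 10 fits, those without siCtrl replicate 1, siUSP9X replicate 2 or siUSP9X replicate 4, and the adjusted p reached 0.0885 in the others. BIRC2, a ubiquitin ligase that restrains caspase-8 activation at TNF receptors, rose from 167 ± 13.5 to 263 ± 79.9 CPM (0.66 ± 0.17, adjusted p = 0.0437), also without overlap. Its call held without siUSP9X replicate 2, where the change was 0.45, or replicate 4, and the adjusted p reached 0.116 in the others. BIRC3, its close relative, had 301 ± 47.3 and 332 ± 179 CPM (adjusted p = 0.752), and its log2 fold change of 0.14 became -0.25 without siUSP9X replicate 2.

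Receptors of this family are also cut from the cell surface, and of 7 sheddases and their regulators 6 were tested. EdgeR called 0, with 2 at an unadjusted p under 0.05, while DESeq2 called 2, limma-voom 0 and edgeR without siUSP9X replicate 2 called 2 higher. ADAM10, a membrane protease, had 221 ± 22.0 CPM in siCtrl and 320 ± 76.3 CPM in siUSP9X without overlap (edgeR adjusted p = 0.0549). It passed the threshold without siUSP9X replicate 2 (0.00297) or replicate 4. ERAP1, an aminopeptidase that promotes TNFRSF1A shedding, had 199 ± 18.8 and 225 ± 32.0 CPM (0.331).

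Downstream, of 10 NF-kB subunits and inhibitors edgeR called 0, with 4 at an unadjusted p under 0.05, 1 lower by DESeq2, 0 by limma-voom and 3 lower without siUSP9X replicate 2. NFKBIA, the inhibitor IkB-alpha and itself an NF-kB target, had 266 ± 23.5 and 191 ± 55.1 CPM (edgeR adjusted p = 0.157, or 0.00821 without that library), and NFKB2 190.0 ± 19.2 and 151 ± 33.6 CPM (0.205). Of 18 NF-kB target genes 16 were tested and edgeR called 1, CSF2, the cytokine GM-CSF. Of the 16, 8 had an unadjusted p under 0.05, beside 27.8% of all tested genes. CSF2 fell 5.10-fold, from 5.09 ± 0.785 to 0.998 ± 0.638 CPM (log2 fold change -2.34 ± 0.32, SE; adjusted p = 0.00216), in 10 of 10 fits with a library left out. DESeq2 called 4 of these targets lower, and without siUSP9X replicate 2 edgeR called 1 higher and 5 lower. These fits called 17.1% and 23.4% of all tested genes. ICAM1, an adhesion molecule that TNF induces on endothelium, had 495 ± 54.8 and 364 ± 64.1 CPM (0.0764, or 0.00668 without that library), and TNFAIP2, named for its induction by TNF, 661 ± 91.1 and 584 ± 158 CPM (0.556).

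FAS and TNFRSF10B are among the receptors known as p53 target genes. Of 20 p53 targets that are no members, 1 rose and 2 fell by edgeR, with 6 at an unadjusted p under 0.05. Over all tested genes 7.31% were called and 27.8% had such a p. In the fit without siUSP9X replicate 2, which called 23.4% of all genes, 2 rose and 4 fell. SESN1, a stress-response sestrin, rose from 6.51 ± 0.899 to 10.8 ± 2.06 CPM (adjusted p = 0.0215). DDB2, a DNA damage binding protein, fell from 47.3 ± 3.09 to 32.3 ± 5.51 CPM (0.0287), and FDXR, a mitochondrial reductase, from 51.0 ± 10.7 to 30.1 ± 7.32 CPM (0.0444). The SESN1 call was lost without siCtrl replicate 2, 3 or 4 or siUSP9X replicate 5, with an adjusted p of up to 0.0696. The DDB2 call held without siCtrl replicate 1 or siUSP9X replicate 1, 2 or 4, and that of FDXR without siCtrl replicate 1 or siUSP9X replicate 1 or 2. CDKN1A, the cell cycle inhibitor p21, had 180.0 ± 17.9 and 145 ± 45.1 CPM (0.351), and GDF15, a stress cytokine, 227 ± 34.9 and 175 ± 73.0 CPM (0.454).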

How the data were processed

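Counts per gene symbol in 10 libraries were used as deposited by the authors, whole numbers that are not normalized. Per the labels' protocols, total RNA was taken with TRIzol and the libraries were made with a stranded mRNA kit. RSEM, DESeq2 and the build hg38 appear in the submitters' processing notes without version or role, and the sources used here do not say whether the numbers are rounded RSEM estimates. Samples were grouped by the treatment label. The members and gene lists were chosen with earlier results of these data known.

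The main test was edgeR's quasi-likelihood test (edgeR 4.0.16, R 4.3.3, robust fit, TMM factors, filterByExpr with a minimum count of 10, group as the only term), two-sided, with Benjamini-Hochberg adjustment over all 13934 tested genes and a threshold of 0.05. The SE of a log2 fold change is its size divided by the root of the F statistic. Low genes carry exact Poisson intervals at 95%, and a count of 0 is read against 3 counts. Symbols were matched to GENCODE release 29 for exon lengths, with 56923 lines (96.91%) matching 1 gene. Each pair of replicates differed beyond counting noise (chi-square per degree of freedom 5.27 or more), so none looked like 1 library deposited again, which does not tell separate cultures from repeated preparations. Named were all members, USP9X, each list's called genes and its 2 genes of highest mean CPM, and the 5 genes most like TNFRSF11B. TNFSF10, TNFRSF10C, TNFSF12, TNFSF11, FASLG, CD40LG, TNFSF8, TNFSF14 and EDAR and the cell type markers were named outside this rule, with their values seen. Alternatives were DESeq2 1.42.0 and its size factors, library totals, limma-voom (limma 3.58.1), no filter, 5 CPM in 5 libraries, the replicate block, longest transcripts, and each library left out.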

Additional observations from a re-analysis of the deposited data

Results flagged for a closer look

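Of 18 sets of 5 libraries screened (the tested receptors and USP9X in each group), 5 held a library set apart from the rest. Its gap to the next exceeded 0.71 of the whole range, Dixon's 95% critical value for 5 samples. Chance passes that in about 1 of 20 independent sets. These sets share the same libraries, so their count cannot be set against that rate. In 4 of the 5 that library was siUSP9X replicate 2. FAS in that library was the highest of its group at 49.6 CPM, with the others at 28.7 to 34.2. TNFRSF10B was the lowest there at 162 CPM (others 208.6 to 221.9), as were TNFRSF10D at 8.64 CPM (others 15.3 to 17.3) and TNFRSF12A at 31.5 CPM (others 135.7 to 156.8). The last set was TNFRSF12A in siCtrl, where replicate 1 was the lowest at 107 CPM (others 180.9 to 206.3).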

How the results depend on the processing

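Among the 8 tested receptors and the 17 alternatives, 134 values stayed on their side of the threshold (TNFRSF10B, not called, changed sign to 0.012 without siUSP9X replicate 2) and 2 lost it, FAS and TNFRSF10A in the fit with the replicate block (log2 fold changes -0.86 and -0.65, adjusted p = 0.0636 and 0.0710), so 0 receptors were called lower there by edgeR, with 2 at an unadjusted p under 0.05 and TNFRSF11B still called. The block fit called 91 of all genes tested, beside 1019 of 13934 in the main fit. Same-numbered libraries did not clearly deviate together (correlations from -0.419 to 0.228), so no pairing by number was seen. With 5 libraries a group, such a check cannot exclude a pairing. The block gave 1 higher (TGFB2) and 1 lower (CSF2) pathway gene against 4 and 5, with TCF7L2 at -0.72 and an adjusted p of 0.0641, DESeq2 gave 11 and 16, and leaving out each library gave 1 to 15 higher and 2 to 22 lower. The share of all genes called also differed, at 7.31% in the main fit, 17.1% by DESeq2 and 23.4% without siUSP9X replicate 2. Of the other named genes, 426 values stayed on their side, 50 lost the threshold and 15 gained it, the cause of which was not tested. TNIP1, not called, changed sign in several alternatives, and BIRC3, CTNNB1, LTBR and TGFB1, also not called, without siUSP9X replicate 2. Longest transcripts in place of all exons raised siCtrl levels per kilobase to 51.1 for TNFRSF10B, 40.5 for TNFRSF1A, 24.2 for FAS and 7.48 for TNFRSF11B, by construction through the shorter length. The group means of the 10 kept their order, but in siUSP9X replicate 2 TNFRSF11B (18.1) fell below FAS (19.3). TNFRSF1B and TNFRSF9 fell under the filter on low counts, and without it their adjusted p-values were 0.402 and 0.410.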

Other observations

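Among the ligands and receptors too low to test, TNFSF14, the ligand LIGHT, was picked after its values were seen. It had 49 pooled counts in siCtrl (0.487 CPM, 95% exact Poisson interval 0.360 to 0.644), with 6 to 14 in each library, and 5 in siUSP9X (0.0584 CPM, 0.0190 to 0.136), with 0 to 2 in each. The groups did not overlap, and an edgeR fit without the filter on low counts put its log2 fold change at -2.93 ± 0.66 (SE; adjusted p = 0.0172). EDAR, the ectodysplasin receptor, had 0 counts in siCtrl, which allows up to 0.0298 CPM, and 9 in siUSP9X (0.105 CPM), up to 5 of them in 1 library (adjusted p = 0.190 without the filter).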
